A study of Mus musculus with 12 samples.

Results

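The cells described here were the somatic cells of XY mouse gonads that lacked the +KTS form of the transcription factor WT1, set against those of XY wild-type (WT) gonads. They were 26791 of the 71955 somatic cells that the same rule kept in all 12 libraries of the series, 14337 from +KTS KO gonads (6879 and 7458 in replicates 1 and 2) and 12454 from WT gonads (7424 and 5030). A cell was kept when at least 1000 genes were detected and at most 10% of its UMIs (unique molecular identifiers, 1 per captured transcript) came from mitochondrial genes. Cells with at least 10 UMIs over the germ cell genes Dppa5a, Pou5f1, Ddx4 and Dazl, with at least 3 over the endothelial genes Cdh5 and Tie1 or over the immune genes Tyrobp and Fcer1g, or with over 20% hemoglobin UMIs were left out.

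The series profiled XX and XY gonads of WT, +KTS KO and -KTS KO embryos, 2 libraries for each of the 6 groups. Embryos were of the mixed background B6CBAF1/JRj and were collected near embryonic day 12, at 23 ± 3 tail somites. The +KTS KO embryos were homozygous for a change of the intron 9 splice donor of Wt1, the mutation type of Frasier syndrome, in every cell, so their gonads, germ cells, blood vessels and kidneys all carried it. Each +KTS KO or WT library held both gonads of 1 embryo. The embryo of the first XY +KTS KO library had more tail somites than the XY WT embryos and that of the second had fewer, so developmental age and library cannot be told apart and both replicates are given throughout. Nothing in the labels pairs a mutant with a WT embryo.

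WT1 is a zinc finger protein that the bipotential gonad needs to form in either sex. A choice between splice donors at the end of exon 9 adds or omits the residues lysine, threonine and serine (KTS) between the third and the fourth zinc finger, and Frasier syndrome arises from mutations that take away the +KTS choice. In XY gonads the supporting cells normally switch on Sry and then Sox9 and become Sertoli cells, which secrete AMH and Desert hedgehog and organise the testis cords. In XX gonads the same lineage keeps WNT4 and R-spondin 1 signalling, switches on Foxl2 and becomes pre-granulosa cells.

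The stretch that separates the forms is shown first, because the mutation takes away its inclusion. The mutation itself lies in the intron 9 splice donor, outside the sequences shown. Both sequences are 30 bases on either side of the exon 9 junction in the GENCODE M21 transcripts (build mm10, plus strand), with the additional 9 bases at chr2:105170010-105170018 in capitals.
Wt1 +KTS: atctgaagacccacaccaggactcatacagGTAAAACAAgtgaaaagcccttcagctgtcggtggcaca
Wt1 -KTS: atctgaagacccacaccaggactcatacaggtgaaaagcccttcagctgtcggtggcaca
The annotation held 5 Wt1 transcripts with these bases and 2 without. The libraries count transcript ends, so a Wt1 UMI does not say which form it came from and the level of Wt1 checks nothing about the mutation. Wt1 was 282 and 220.1 CPM in the +KTS KO libraries and 168 and 240.0 CPM in the WT libraries, where CPM is UMIs per 1000000 somatic UMIs of the library after TMM scaling. The groups overlapped (log2 difference 0.30 ± 0.18 (SE), edgeR adjusted p = 0.29).

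The somatic UMIs summed to 84626695 and 113015648 in the +KTS KO libraries and to 88361669 and 72151542 in the WT libraries, with medians of 10281, 13980.5, 10212.5 and 12595.5 UMIs per cell. Libraries shared between 3 and 26 cell barcodes, at most 0.35% of a library. The summed gonadal somatic markers Nr5a1, Gata4, Wt1, Lhx9 and Emx2 were at 967 and 771 CPM in the mutants and 583 and 684 CPM in WT, with none at 0. In these 4 libraries 4 Y-linked genes summed to 136 to 159 CPM, and Xist had at most 12 UMIs. Immune and adrenal cortex markers summed to at most 0.609 and 1.70 CPM in these libraries, and Cyp11b1 and Cyp11b2 were at 0. Left-over endothelial markers summed to 27.0 and 13.5 CPM in the mutants and 52.7 and 47.0 CPM in WT (of 7, 2 fell and none was at 0), and erythroid markers to 411 and 332 against 433 and 1126 CPM (of 9, 1 fell and none was at 0). Their part in the results was not tested. The libraries stood apart in 3 ways that touch results below. The first +KTS KO library had 2347 CPM over 11 immediate early and stress genes, against 679 CPM in the second and 884 and 579 CPM in WT. The second +KTS KO library held 73 cells with mesonephric duct markers, against 1, 0 and 0 in the others. A duct cell had at least 5 UMIs over Pax2, Gata3, Lhx1 and Cdh16. That library also had 10.8 CPM over 6 duct genes, against 2.53, 1.36 and 1.38 CPM. Cells with perivascular markers, at least 3 UMIs over Rgs5, Cspg4, Kcnj8 and Abcc9, numbered 61 and 152 in the mutants and 164 and 228 in WT. Among genes of at least 20 CPM, the libraries of 1 group differed by 2-fold or more for 2.91% of genes in the XY +KTS KO pair and 2.09% in the XY WT pair, against 0.759% to 0.949% in the other 4 groups.

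The test throughout was the quasi-likelihood F test of edgeR on the 12 summed libraries. Its p-values were adjusted by Benjamini-Hochberg over all 18019 genes tested. Between XY +KTS KO and XY WT, 2312 genes (12.8% of those tested) passed an adjusted p of 0.05, 1143 higher in the mutants (6.34%) and 1169 lower (6.49%), and the median log2 fold change of all genes was 0.05. These percentages are the background for each list below. The same test fitted to the 4 compared libraries alone called 340 genes, 96 higher and 244 lower. Without the first WT library 708 genes passed, without the second 1452, and without the first or the second mutant 1849 and 3051. The p-values rest on a spread pooled over all 6 groups, with 2 libraries in each. The XY +KTS KO and XY WT pairs were wider apart (2.91% and 2.09% of genes) than the other groups (at most 0.949%).

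Most Sertoli genes were below WT in both mutant libraries, though none of those listed was at 0. Of the 18 Sertoli genes listed, all tested, 15 fell, none rose and 3 did not pass, with a median log2 fold change of -3.18 (0.05 over all genes). In summed cells, fewer cells of a type and less RNA per cell cannot be told apart. Sox9, the transcription factor that directs Sertoli differentiation, was at 40.3 and 6.40 CPM in the +KTS KO libraries and 165 and 241 CPM in WT. The lowest WT library was above both mutants, though the mutants themselves were far from each other. Sox9 fell by 3.12 ± 0.70 (SE) on the log2 scale (edgeR adjusted p = 0.0202). Its relatives fell as well, with Sox8 at 1.58 and 1.1 CPM against 5.19 and 5.57 CPM (fell by 2.01 ± 0.35, SE, on the log2 scale, edgeR adjusted p = 0.00712). Sox10 was at 0.519 and 0.0451 CPM against 7.45 and 8.18 CPM (fell by 4.82 ± 0.90, SE, edgeR adjusted p = 0.015).

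Some secreted products of Sertoli cells were also lower, as was the enzyme gene Cyp26b1. Amh, the hormone that removes the Müllerian duct, was at 25.7 and 11.2 CPM in the mutants and 195 and 68.2 CPM in WT. The groups did not overlap, and Amh fell by 2.83 ± 0.57 (SE) on the log2 scale (edgeR adjusted p = 0.0138). Dhh, the Hedgehog ligand of Sertoli cells, was at 7.14 and 5.11 CPM against 70.2 and 42.8 CPM. It fell by 3.21 ± 0.31 (SE, edgeR adjusted p = 0.000617). Fgf9, which feeds back on Sox9 in XY gonads, was at 5.55 and 1.89 CPM against 37.8 and 50.7 CPM. It fell by 3.58 ± 0.47 (SE, edgeR adjusted p = 0.00214). In each of these 3 genes both mutant libraries lay below both WT libraries. Gdnf, the growth factor for spermatogonial stem cells, fell by 3.15 ± 0.76 (SE, edgeR adjusted p = 0.0266) from 7.999 and 5.65 CPM to 1.42 and 0.135 CPM. Cyp26b1, which degrades retinoic acid and so shields XY germ cells from it, was at 14.9 and 6.45 CPM against 39.0 and 57.0 CPM. It fell by 2.17 ± 0.34 (SE, edgeR adjusted p = 0.00475).

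Several other Sertoli genes were reduced further. Tesc, a calcium-binding protein of early Sertoli cells, was at 3.74 and 2.03 CPM in the mutants and 305 and 193 CPM in WT. It fell by 6.44 ± 0.41 (SE) on the log2 scale (edgeR adjusted p = 6.82e-05). Col9a3, a collagen chain of early testis cords, was at 2.37 and 0.352 CPM against 131 and 55.4 CPM. It fell by 6.12 ± 0.77 (SE, edgeR adjusted p = 0.00184). The cystatin gene Cst9 was at 4.59 and 20.1 CPM against 377 and 429.6 CPM. It fell by 5.03 ± 0.66 (SE, edgeR adjusted p = 0.00207). The mutants differed among themselves for Cst9 in the opposite order to Sox9, the second library being the higher. Aard (34.0 and 23.5 against 557 and 433 CPM), Mro (1.09 and 1.30 against 17.8 and 24.5 CPM), Mmd2 (2.75 and 0.740 against 28.3 and 22.8 CPM) and Cbln4 (3.57 and 5.13 against 25.7 and 27.1 CPM) fell by 2.60 to 4.14 on the log2 scale, with adjusted p between 3.77e-05 and 0.00232 (edgeR). Of the 3 members that did not pass, Ptgds was at 108 and 16.0 CPM against 317 and 124 CPM. Defb19 was at 36.2 and 40.5 CPM against 152 and 47.6 CPM and Vnn1 at 6.05 and 5.68 CPM against 9.25 and 3.59 CPM (edgeR adjusted p = 0.203, 0.0945 and 0.826).

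Genes named for the size of their fall among all genes tested, a rule that required both mutants under both WT libraries, included Etd (0.0649 and 0.253 against 18.1 and 26.2 CPM, fell by 7.08 ± 0.80, SE, on the log2 scale, edgeR adjusted p = 0.00115). Others were the noncoding RNA Lncbate6 (1.20 and 0.685 against 38.6 and 42.0 CPM) and the secreted matrix phosphoprotein Spp1 (5.29 and 5.93 against 328 and 402 CPM). Cd55, a complement regulator, was at 1.48 and 1.62 CPM against 46.1 and 28.4 CPM. The glutathione transferase gene Gstm6 was at 11.6 and 2.20 CPM against 165 and 107 CPM, and the transcriptional coactivator gene Cited4 at 2.99 and 1.37 CPM against 29.0 and 44.7 CPM. The fall of these 5 genes after Etd lay between 4.08 and 6.02 on the log2 scale, with the largest edgeR adjusted p at 0.0084. With no other cell type removed, Cited4 did not pass, with a log2 fold change of -0.94 (edgeR adjusted p = 0.365). The immunoglobulin-like lectin gene Siglece, which entered through its difference from XX, was at 2.57 and 3.01 CPM against 24.6 and 28.7 CPM and fell by 3.26 ± 0.23 (SE, edgeR adjusted p = 0.000145).

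**Figure D1:**
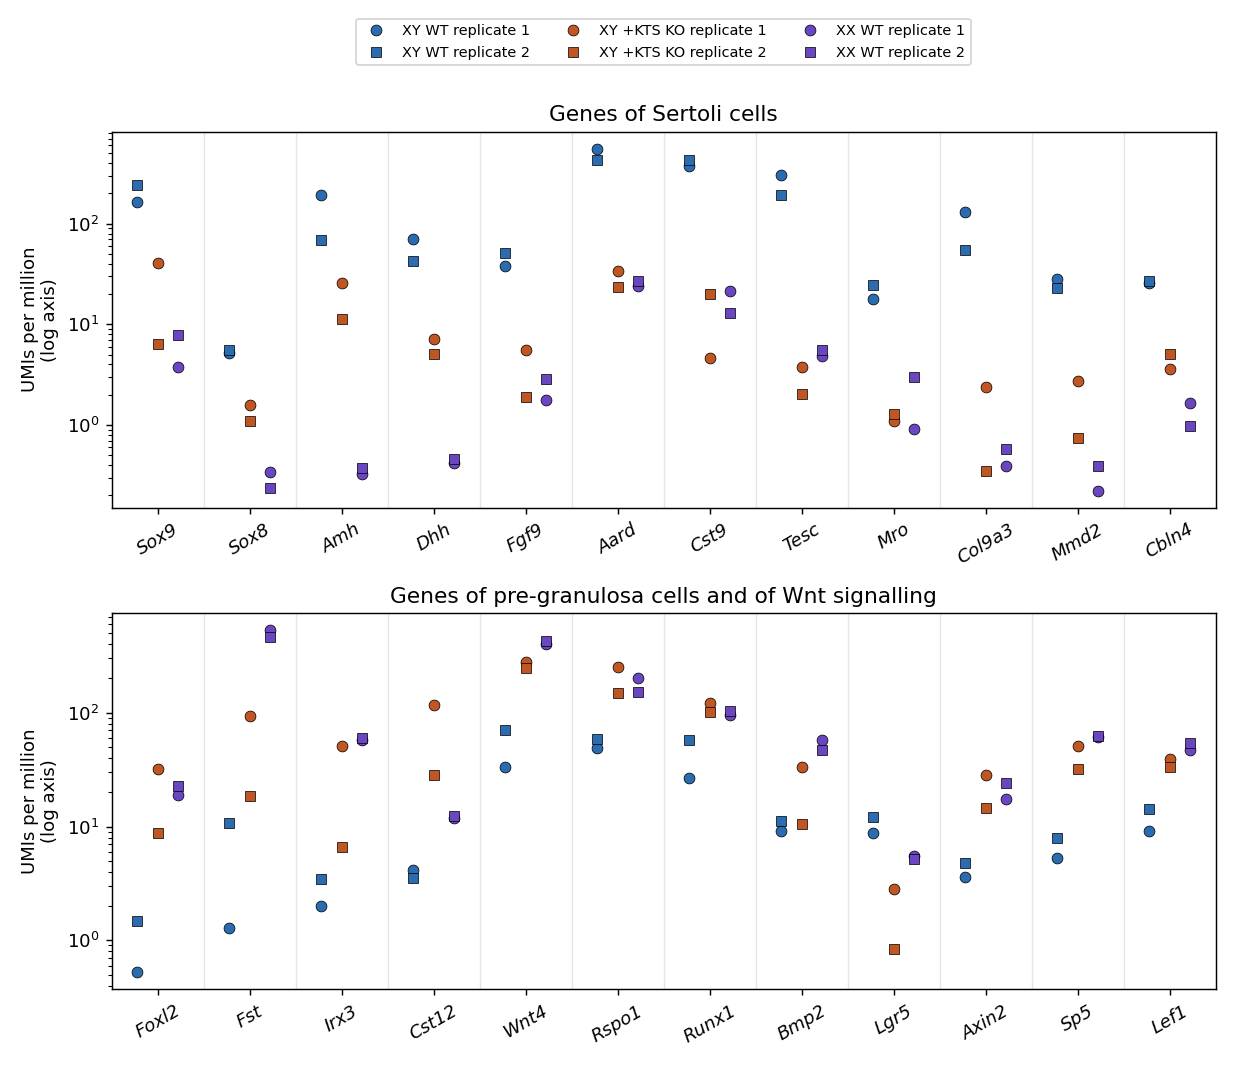
Level of 12 Sertoli genes (top) and 12 pre-granulosa and Wnt genes (bottom) in CPM on a log axis, 1 point per library, for XY WT, XY +KTS KO and XX WT gonads (replicate 1 circles, replicate 2 squares). The 12 genes of the top panel were taken from the 15 Sertoli genes that fell. All have both mutant points below both XY WT points, which that choice largely set. In the bottom panel the mutant points of Wnt4, Rspo1, Runx1, Sp5 and Lef1 lie nearer to those of XX WT than to those of XY WT. Fst, at 93.8 and 18.4 CPM, lies far under XX WT at 529 and 463 CPM.

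The count of 15 lower Sertoli genes was 11 without the first WT library, 10 with the 4 compared libraries alone and 15 without any 1 of the other 3 libraries. Sox9 did not pass without the first or the second WT library (edgeR adjusted p = 0.0548 and 0.059), and Amh (0.0874), Sox10 (0.0587) and Gdnf (0.117) did not without the first. Defb19 passed without the second WT library (log2 fold change -1.98, edgeR adjusted p = 0.0187).

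Several pre-granulosa genes, Foxl2 among them, were higher in the mutants than in XY WT, and the first mutant library was the higher for most. Of 14 listed genes, 6 rose, 1 fell and 7 did not pass, with a median log2 fold change of 1.89 (0.05 over all genes, of which 6.34% rose). Foxl2, the transcription factor that maintains ovarian identity, was at 32.2 and 8.70 CPM in the mutants and 0.523 and 1.46 CPM in WT. Both mutants were above both WT libraries, the first several-fold above the second, and Foxl2 rose by 4.37 ± 0.70 (SE) on the log2 scale (edgeR adjusted p = 0.00515). The homeobox gene Irx3 was at 50.6 and 6.57 CPM against 2.01 and 3.46 CPM (rose by 3.39 ± 0.88, SE, edgeR adjusted p = 0.0354). The cystatin gene Cst12 was at 118 and 28.6 CPM against 4.19 and 3.56 CPM (rose by 4.24 ± 0.68, SE, edgeR adjusted p = 0.00533). For both, the first mutant library was the higher by several-fold. Fst, which encodes the activin antagonist follistatin, was at 93.8 and 18.4 CPM against 1.29 and 10.6 CPM and did not pass (log2 difference 3.24 ± 1.06, SE, edgeR adjusted p = 0.0726). Both mutants were above both WT libraries, but the second WT library was nearer to the second mutant than to the first WT library.

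Wnt4, Rspo1 and Runx1 were closer between the mutants than Foxl2. Wnt4, the ligand that opposes testis development in XX gonads, was at 282 and 245 CPM against 33.3 and 70.6 CPM. It rose by 2.34 ± 0.42 (SE) on the log2 scale (edgeR adjusted p = 0.00851). Rspo1, which amplifies Wnt signalling by protecting its receptors, was at 252 and 150.5 CPM against 48.6 and 59.3 CPM. It rose by 1.90 ± 0.31 (SE, edgeR adjusted p = 0.00596). Runx1, a transcription factor of the supporting lineage that stays on in XX, was at 122 and 103 CPM against 26.8 and 57.8 CPM. It rose by 1.41 ± 0.30 (SE, edgeR adjusted p = 0.0167). In all 3 the lower mutant was above the higher WT library. Bmp2 (33.4 and 10.53 against 9.22 and 11.2 CPM), Irx5 (7.64 and 0.758 against 0.755 and 0.849 CPM) and Kitl, the ligand of the KIT receptor on germ cells (109 and 123 against 109 and 233 CPM), overlapped between groups and did not pass (edgeR adjusted p = 0.101, 0.101 and 0.341). The 1 member that fell was Lgr5, a receptor for R-spondins, at 2.81 and 0.839 CPM against 8.81 and 12.2 CPM (fell by 2.53 ± 0.55, SE, edgeR adjusted p = 0.0176).

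Which library was left out set how much of this list passed. The count of higher genes was 10 without the second mutant library, 4 without the first, 3 without the first WT library and 6 without the second. With the 4 compared libraries alone 3 were higher and none lower (8 at an unadjusted p under 0.05, DESeq2 on all libraries 9 higher and 1 lower), and Foxl2 did not pass (edgeR adjusted p = 0.0623), while it passed in the other 12 of 13 alternatives. Irx3 had a log2 fold change of 1.28 without the first mutant library (edgeR adjusted p = 0.234), did not pass without either WT library (0.206 and 0.0902), and Fst passed without the second mutant or the second WT library (0.0353 and 0.0441). Wnt4 (0.0591) and Rspo1 (0.0567) did not pass without the first WT library, Runx1 (0.0546) without the first mutant, and Lgr5 (0.0595) without the second WT library.

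Of the genes named for the size of their rise among all genes tested, several were as high in the second mutant as in the first. Plac8, a small cysteine-rich protein, was at 54.6 and 59.0 CPM against 7.50 and 8.96 CPM. Plac8 rose by 2.79 ± 0.28 (SE) on the log2 scale (edgeR adjusted p = 0.0008). Wfdc1, a secreted protein with a whey acidic protein domain, was at 39.8 and 17.1 CPM against 3.06 and 2.20 CPM. Wfdc1 rose by 3.43 ± 0.45 (SE, edgeR adjusted p = 0.00207). Morn1 (29.5 and 47.4 against 3.70 and 7.76 CPM), the glucosidase gene Mgam (15.4 and 26.5 against 2.09 and 4.37 CPM) and the nuclear receptor gene Nr2e3 (23.2 and 38.9 against 2.67 and 8.47 CPM) rose by 2.48 to 2.75, with the second mutant the higher in each and edgeR adjusted p at most 0.0134. The immediate early gene Fos also met the criterion, at 574 and 83.9 CPM against 81.0 and 45.8 CPM (rose by 2.37 ± 0.68, SE, edgeR adjusted p = 0.049), and the first mutant alone was high: without that library its log2 fold change was 0.43 (edgeR adjusted p = 0.472). Mgam (0.0693) and Nr2e3 (0.0509) did not pass without the first WT library.

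Wnt pathway genes other than Wnt4 and Rspo1 rose too. Of 23 listed genes, 10 rose, 2 fell and 11 did not pass, with a median log2 fold change of 0.71 (0.05 over all genes). The target genes Axin2, Lef1 and Sp5 rose without overlap between the groups. The feedback genes Nkd1, Znrf3 and Rnf43 of the same list did not pass. Axin2, a feedback inhibitor, was at 28.6 and 14.4 CPM against 3.62 and 4.804 CPM. It rose by 2.35 ± 0.33 (SE) on the log2 scale (edgeR adjusted p = 0.00289). Lef1, a DNA-binding partner of beta-catenin, was at 39.2 and 33.5 CPM against 9.18 and 14.3 CPM. Lef1 rose by 1.63 ± 0.22 (SE, edgeR adjusted p = 0.00232). Sp5, a zinc finger target gene, was at 51.1 and 31.9 CPM against 5.28 and 7.99 CPM. Sp5 rose by 2.64 ± 0.49 (SE, edgeR adjusted p = 0.00964).

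Among ligands, Wnt9a was at 8.58 and 6.22 CPM against 0.645 and 1.45 CPM (rose by 2.82 ± 0.46, SE, edgeR adjusted p = 0.00568). Wnt6 was at 455 and 427 CPM against 241 and 254 CPM (rose by 0.83 ± 0.20, SE, edgeR adjusted p = 0.0245). The receptor gene Fzd2 (43.8 and 46.9 against 33.9 and 29.2 CPM) and the secreted modulator Sfrp1 (80.4 and 100.02 against 42.1 and 40.9 CPM) rose by 0.52 ± 0.14 and 1.12 ± 0.29 (SE). The remaining riser was Notum, a Wnt deacylase, at 0.854 and 5.72 CPM against 0.231 and 0.260 CPM, and it was high in the library with duct cells: without that library its log2 fold change was 1.79 (edgeR adjusted p = 0.123). With duct and perivascular cells removed it was 3.46 (edgeR adjusted p = 0.0361), and with no other cell type removed 0.77 (0.267). Notum did not pass without either WT library (0.171 and 0.105). The extracellular inhibitor Dkk1 moved the other way, from 68.9 and 55.1 CPM in WT to 0.368 and 3.02 CPM in the mutants (fell by 5.17 ± 0.75, SE, edgeR adjusted p = 0.00322). The count of higher Wnt genes was 3 without the first WT library, where Sp5 (0.0834) joined Wnt4 and Rspo1 among those that did not pass, 7 without the second, 9 and 10 without either mutant library, and 5 with the 4 compared libraries alone. Wnt6 (0.0675 to 0.142), Fzd2 (0.0754 to 0.149) and Sfrp1 (0.0838 to 0.156) each failed to pass without either WT library and without 1 of the mutant libraries.

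The promoters of Sp5 and Lef1 are printed because they are the risers of the Wnt list whose 250 bases before the start hold the core letters that LEF1 and its relatives recognise, CTTTGA on either strand (RefSeq, build GRCm38.p6, matches in capitals). Lef1 has 4 windows in the table, and both of its matches lie in the one printed.
Sp5, chr2:70474673-70474922, plus strand: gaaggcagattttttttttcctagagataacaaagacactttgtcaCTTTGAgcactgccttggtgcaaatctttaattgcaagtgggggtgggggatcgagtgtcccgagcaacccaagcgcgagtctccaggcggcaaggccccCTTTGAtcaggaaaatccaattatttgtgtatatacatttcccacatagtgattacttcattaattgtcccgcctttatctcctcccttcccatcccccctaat
Lef1, chr3:131156044-131156293, plus strand: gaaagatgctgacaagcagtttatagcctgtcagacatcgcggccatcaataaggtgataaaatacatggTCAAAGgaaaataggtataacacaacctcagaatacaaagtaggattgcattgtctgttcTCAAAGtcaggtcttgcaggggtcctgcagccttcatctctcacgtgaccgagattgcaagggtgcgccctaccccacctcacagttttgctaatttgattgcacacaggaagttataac
These letters stood in the window of 2 of the 7 risers of the Wnt list with a promoter in the table and in 13.8% of 32851 promoters, a share that rests on very few genes. A gene was counted if any of its windows matched, while the background counts each window by itself, so the shares are not in the same unit. Dkk1, the faller of the list with a promoter in the table, holds them as well, with 2 matches. GCGNGGGCG, letters bound by WT1 and by EGR1, was in 4.70% of promoters, in those of Wnt6 and Wnt9a among the 7, of Mmd2 among 9 lower Sertoli genes and of Runx1 among 6 higher pre-granulosa genes.

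**Figure D2:**
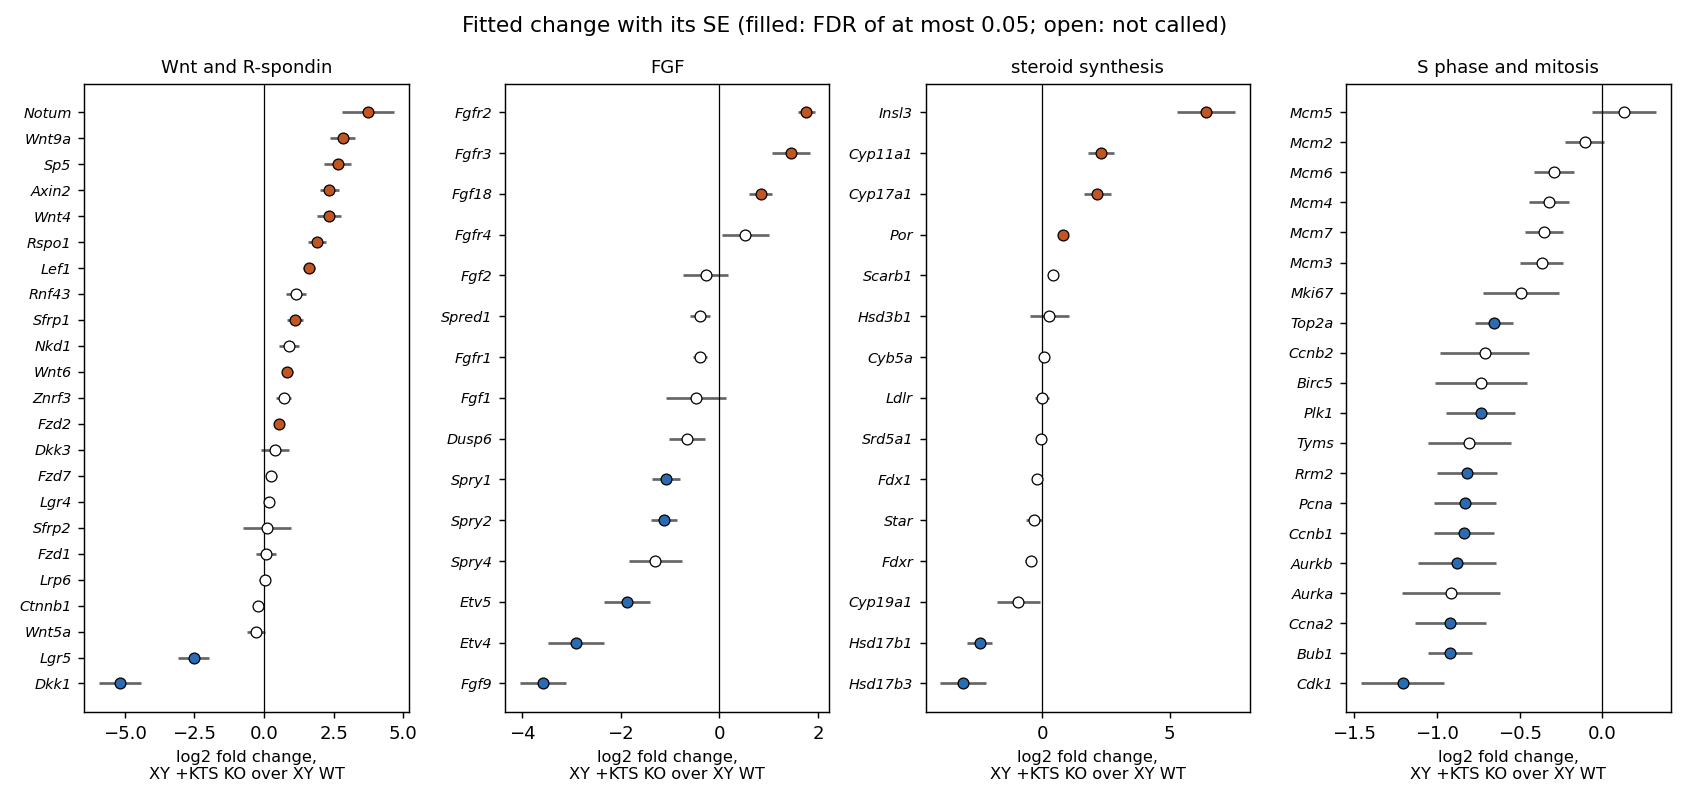
Fitted log2 fold change of XY +KTS KO over XY WT for every tested gene of 4 lists, with bars of 1 SE and filled points for an adjusted p of at most 0.05 (orange higher, blue lower). Axin2, Lef1, Sp5, Wnt4 and Wnt9a lie to the right with Lgr5 and Dkk1 far to the left, Etv4, Etv5, Spry1 and Spry2 lie to the left of Fgfr2 and Fgfr3, and all but 1 of the 20 genes of S phase and mitosis lie left of 0. The position of Insl3 rests on 2 and 1 UMIs in WT and is not a measured size.

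Of 16 genes of the bipotential and pre-supporting gonad, 2 rose, none fell and 14 did not pass, a share called near the 12.8% of all genes (6 at an unadjusted p under 0.05, DESeq2 3 higher and 1 lower), with a median log2 fold change of 0.29. Emx2, a homeobox gene of the gonadal epithelium, was at 226 and 191 CPM against 59.7 and 91.5 CPM. Emx2 rose by 1.46 ± 0.20 (SE) on the log2 scale (edgeR adjusted p = 0.00254). The other riser was Wnt6, given above. Gata4 (106 and 80.6 against 96.7 and 122 CPM), Nr5a1 (75.5 and 59.6 against 42.7 and 59.3 CPM), which drives gonadal and steroidogenic genes, and Lhx9 (278 and 220.4 against 216 and 171 CPM) did not pass (edgeR adjusted p = 0.417, 0.248 and 0.176). Nr0b1, an X-linked antagonist of Nr5a1, was at 76.5 and 121 CPM against 46.2 and 66.2 CPM (edgeR adjusted p = 0.0887) and passed without the first mutant library (0.0488). Sry, the switch of testis development, which is on only briefly, had 24 and 34 UMIs in the mutants and 27 and 61 UMIs in WT (log2 difference -1.03 ± 0.52, SE, edgeR adjusted p = 0.228). Its upstream regulator Gadd45g was at 298 and 500.0 CPM against 442 and 564 CPM (edgeR adjusted p = 0.494).

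FGF genes changed in both directions. Of 15, 3 rose, 5 fell and 7 did not pass, with a median log2 fold change of -0.47 (0.05 over all genes). Beside Fgf9, the fallers were genes that FGF signalling switches on, though not all listed genes of that kind fell. Spry4, Dusp6 and Spred1 did not pass. Etv4 was at 3.88 and 1.92 CPM against 22.9 and 20.7 CPM. Etv4 fell by 2.91 ± 0.57 (SE) on the log2 scale (edgeR adjusted p = 0.012). Etv5, its close relative, was at 6.93 and 2.66 CPM against 15.3 and 19.8 CPM and fell by 1.87 ± 0.46 (SE, edgeR adjusted p = 0.0284). The feedback inhibitors Spry1 (11.9 and 10.9 against 30.3 and 18.1 CPM) and Spry2 (8.97 and 10.7 against 22.9 and 19.8 CPM) fell by 1.08 ± 0.28 and 1.12 ± 0.26 (SE). The receptor Fgfr2, through which FGF9 acts in XY gonads, was higher instead, at 46.2 and 33.6 CPM against 11.2 and 12.4 CPM (rose by 1.76 ± 0.17, SE, edgeR adjusted p = 0.000668). Fgfr3 (2.21 and 0.965 against 0.584 and 0.575 CPM) and the ligand Fgf18 (15.8 and 13.9 against 10.3 and 6.25 CPM) rose by 1.45 ± 0.38 and 0.84 ± 0.24 (SE, edgeR adjusted p = 0.0381 and 0.0476). The counts higher and lower were 2 and 1 without the first WT library, 1 and 3 without the second, 1 and 6 without the first mutant and 2 and 3 without the second. Etv4 (0.0558 without the first WT library), Etv5 (0.0625 to 0.0864), Spry1 (0.0814 to 0.24), Spry2 (0.0551 to 0.125), Fgfr3 (0.113 to 0.176) and Fgf18 (0.0559 to 0.176) each did not pass in at least 1 of these, whereas Fgf9 and Fgfr2 passed in all 4.

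Steroid genes changed in opposite directions. Of 15, 4 rose, 2 fell and 9 did not pass, with a median log2 fold change of 0.00. Cyp11a1, which cuts cholesterol in the first step of steroid synthesis, was at 56.1 and 133 CPM against 12.2 and 26.0 CPM. It rose by 2.31 ± 0.50 (SE) on the log2 scale (edgeR adjusted p = 0.0181). Cyp17a1, on the way to androgens, was at 2.84 and 3.06 CPM against 0.536 and 0.794 CPM. Cyp17a1 rose by 2.15 ± 0.53 (SE, edgeR adjusted p = 0.0286). Insl3, a hormone of fetal Leydig cells, had 256 and 87 UMIs in the mutants and 2 and 1 UMIs in WT, too few in WT for a fold (edgeR adjusted p = 0.0128). The reductase gene Por, which supplies electrons to microsomal cytochromes P450 such as CYP17A1, was at 45.98 and 49.8 CPM against 24.7 and 29.8 CPM. Por rose by 0.81 ± 0.12 (SE, edgeR adjusted p = 0.00429).

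The hydroxysteroid dehydrogenases that Sertoli cells of the fetal testis express were lower. Hsd17b3, which makes testosterone, was at 0.346 and 2.00 CPM against 12.3 and 8.02 CPM and fell by 3.10 ± 0.89 (SE) on the log2 scale (edgeR adjusted p = 0.0476). Hsd17b1 was at 0.227 and 0.370 CPM against 2.47 and 0.808 CPM and fell by 2.45 ± 0.50 (SE, edgeR adjusted p = 0.0139). Star, the cholesterol carrier of mitochondria, overlapped (22.6 and 11.9 against 17.0 and 26.5 CPM, edgeR adjusted p = 0.496). Inha, the inhibin alpha chain, was at 93.3 and 234 CPM against 99.5 and 121 CPM (edgeR adjusted p = 0.256), high only in the second mutant library, and passed without the first (log2 fold change 1.103, edgeR adjusted p = 0.00451). Within the activin and inhibin list of 13, 1 fell, none rose and 12 did not pass (4 at an unadjusted p under 0.05, DESeq2 2 higher and 1 lower). That 1 was Acvr1, a type I receptor, at 11.02 and 6.97 CPM against 17.7 and 17.6 CPM (edgeR adjusted p = 0.0143). The count of higher steroid genes was 1 without the first WT library, 2 without the second and 3 and 4 without either mutant. Cyp11a1 did not pass without the first WT library (0.125) or the second mutant (log2 fold change 1.55, edgeR adjusted p = 0.0531). Cyp17a1 did not without either WT library or the first mutant (0.0552 to 0.181), nor Insl3 without either WT library (0.0883 and 0.0623). Hsd17b3 did not pass without the first WT library (0.185), the second (0.0793) or the first mutant (0.142), and Hsd17b1 did not pass without the first WT library or the first mutant (0.109 and 0.061). Acvr1 did not pass without the first WT library (0.0702).

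Interstitial progenitor genes showed no common direction. Of 12, 3 rose, 1 fell and 8 did not pass, with a median log2 fold change of 0.01. Col1a1, a fibrillar collagen, was at 46.3 and 63.7 CPM against 11.3 and 11.6 CPM and rose by 2.27 ± 0.48 (SE) on the log2 scale (edgeR adjusted p = 0.0164). The transcription factor genes Maf (54.7 and 26.8 against 15.8 and 16.2 CPM) and Nr2f1 (21.7 and 29.99 against 11.96 and 11.6 CPM) rose by 1.35 ± 0.31 and 1.14 ± 0.32 (SE). Nr2f2 (137 and 122 against 106 and 90.9 CPM) did not pass. No gene of this list rose or fell without the first WT library (0 of 12, 4 at an unadjusted p under 0.05, DESeq2 on all libraries 4 higher and 1 lower), and Col1a1, Maf and Nr2f1 did not pass without either WT library (0.0696 to 0.191), nor Maf without the first mutant (0.0805) and Nr2f1 without the second (0.126). The Hedgehog list had 12 of its 14 genes tested, with 2 higher, 1 lower (Dhh) and 9 that did not pass. The co-receptor genes Boc (22.3 and 10.9 against 6.55 and 7.06 CPM) and Cdon (30.9 and 19.9 against 6.49 and 11.4 CPM) rose by 1.29 ± 0.27 and 1.51 ± 0.28 (SE, edgeR adjusted p = 0.0154 and 0.00915). The target genes Ptch1 and Gli1 were at 23.5 and 12 against 52.6 and 27.4 CPM and 3.12 and 1.68 against 6.36 and 1.29 CPM, and neither passed (edgeR adjusted p = 0.0582 and 0.465). Ptch1 passed without the second WT library or the first mutant (0.0275 and 0.0249), and Boc and Cdon did not pass without the first WT library (0.104 and 0.0543), nor Boc without the second (0.0503). The perivascular gene Rgs5 was at 2.25 and 6.92 CPM against 17.7 and 21.1 CPM (fell by 2.08 ± 0.46, SE, edgeR adjusted p = 0.0192) and did not pass without the first or the second WT library (0.0634 and 0.0655). Cells with perivascular markers numbered 61 of 6879 and 152 of 7458 in the mutants and 164 of 7424 and 228 of 5030 in WT. Rgs5 is among the genes that define these cells, so their count is not independent of its level. The second mutant was near the first WT library. Of 6 perivascular genes 2 rose (Kcnj8, by 2.98 ± 0.49, and Abcc9, by 2.44 ± 0.60, SE, on the log2 scale), 1 fell and 3 did not pass, with summed levels of 20.6 and 25.2 CPM against 32.1 and 37.0 CPM and none at 0, and their part in the interstitial levels was not tested. With perivascular and duct cells removed as well, Col1a1, Maf and Nr2f1 kept their calls, and with no other cell type removed or with RLE scaling Nr2f1 did not (0.0613 and 0.0539).

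Genes of S phase and mitosis were lower in the mutants. Of 20, 9 fell, none rose and 11 did not pass, with a median log2 fold change of -0.73 (0.05 over all genes, of which 6.49% fell). Cdk1, the mitotic kinase, was at 83.8 and 120.1 CPM against 282 and 188 CPM and fell by 1.20 ± 0.25 (SE) on the log2 scale (edgeR adjusted p = 0.0154). Top2a, a topoisomerase of dividing cells, was at 139 and 125 CPM against 212 and 203 CPM (fell by 0.65 ± 0.11, SE, edgeR adjusted p = 0.00744). The checkpoint kinase Bub1 was at 20.2 and 22.8 CPM against 44.4 and 36.8 CPM (fell by 0.92 ± 0.13, SE, edgeR adjusted p = 0.00306). Ccnb1 (38.0 and 48.0 against 88.8 and 64.5 CPM) and the replication clamp gene Pcna (86.7 and 113 against 204 and 149 CPM) fell by 0.83 ± 0.18 and 0.83 ± 0.19 (SE). Among 10 cell cycle inhibitors and D cyclins, 2 rose, 1 fell and 7 did not pass. The inhibitors Cdkn1b (60.9 and 81.8 against 26.8 and 33.2 CPM) and Cdkn2b (4.44 and 1.95 against 0.170 and 0.274 CPM) rose by 1.248 ± 0.18 and 3.84 ± 0.68 (SE, edgeR adjusted p = 0.00351 and 0.00779). Ccnd1 fell by 0.94 ± 0.27 (SE, edgeR adjusted p = 0.0479) from 90.5 and 67.2 CPM to 53.6 and 28.5 CPM. The count of lower S phase and mitosis genes was 2 without the first WT library, 9 without the second, 3 without the first mutant and 13 without the second, and DESeq2 called 16. Cdk1, Ccnb1 and Pcna did not pass without the first WT library (0.111, 0.131 and 0.149) or the first mutant (0.0703, 0.0782 and 0.0926), Cdkn2b (0.0745) not without the first WT library, and Ccnd1 not without either WT library or the second mutant (0.0516 to 0.259), while Top2a, Bub1 and Cdkn1b passed without any 1 of the 4. With the 4 compared libraries alone none of the 20 passed (edgeR, 10 at an unadjusted p under 0.05), nor did Cdkn1b. With no other cell type removed, Top2a, Cdkn2b and Ccnd1 did not pass.

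Basement membrane and coelomic epithelium genes showed no common direction. Sparc, a collagen-binding protein abundant in testis cords, was at 699 and 671 CPM in the mutants and 1818 and 1419 CPM in WT and fell by 1.24 ± 0.16 (SE) on the log2 scale (edgeR adjusted p = 0.00213). Of 12 basement membrane genes 2 rose, 2 fell and 8 did not pass. Beside Sparc, the laminin gene Lama4 fell (6.22 and 3.38 against 10.48 and 14.1 CPM), whereas Lama1 (28.4 and 20.6 against 9.91 and 11.7 CPM) and Lamb2 (14.2 and 9.67 against 4.53 and 6.27 CPM) rose by 1.18 ± 0.16 and 1.146 ± 0.24 (SE, edgeR adjusted p = 0.00252 and 0.0164). Of 10 coelomic epithelium genes 2 rose, none fell and 8 did not pass (7 at an unadjusted p under 0.05, DESeq2 3 higher and 1 lower). The keratin gene Krt19 was at 27.3 and 37.2 CPM against 11.5 and 7.09 CPM (rose by 1.80 ± 0.23, SE, edgeR adjusted p = 0.00198). Aldh1a2, which makes retinoic acid, was at 84.6 and 82.9 CPM against 66.7 and 56.9 CPM (rose by 0.44 ± 0.12, SE, edgeR adjusted p = 0.046). Sparc, Lama1 and Krt19 passed without any 1 library. Lama4 (0.0793 to 0.117) failed without either WT library and without the second mutant, Lamb2 (0.124 and 0.065) without the first WT library and the first mutant, and Aldh1a2 (0.0659 to 0.195) without any 1 of the 4.

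The share of cells in which a marker was seen was counted after each cell was thinned to 5000 UMIs, which left out 1618 and 321 shallower cells of the mutants and 276 and 232 of WT. Endothelial cells of the same library, thinned alike, were counted as a guide to free RNA, though doublets among them were not removed. They numbered 96 and 180 in the mutants and 203 and 159 in WT. Before thinning their medians were 19940 and 20161 UMIs in the mutants and 16431 and 16857 in WT. These lay above the somatic medians, so the part of free RNA may differ between the cell types. All intervals are exact 95% intervals that cover counting error only. Sox9 had a UMI in 10.9% (10.1 to 11.8) and 2.26% (1.92 to 2.63) of the mutant cells. The WT shares were 31.3% (30.3 to 32.4) and 37.5% (36.1 to 38.9). In endothelial cells Sox9 was seen in 2.08% and 0% of mutant and 3.94% and 3.77% of WT cells (the exact upper limit of the 0 of 180 is 2.03%, here and for the other genes). The Sox9 share of the second mutant library lay just above the upper limit of its endothelial share, and that of the first was above its endothelial share. The part of free RNA in these shares was not tested. Without thinning the shares were 16.5% and 5.73% against 41.7% and 47.8%. Amh was seen in 7.83% (7.12 to 8.59) and 3.77% (3.34 to 4.24) of mutant cells against 22.0% (21.1 to 23.0) and 13.5% (12.6 to 14.5) of WT cells. The endothelial shares were 3.12%, 0%, 5.42% and 1.26% in the same order, and without thinning the somatic shares were 12.3% and 8.54% against 26.3% and 21.1%.

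The ovarian markers were spread over different shares of the mutants. Foxl2 was seen in 13.7% (12.8 to 14.6) and 4.36% (3.90 to 4.86) of mutant cells and in 0.252% (0.149 to 0.398) and 0.771% (0.544 to 1.06) of WT cells. The endothelial shares were 4.17%, 0%, 0% and 1.89%. With so few endothelial cells, the WT shares cannot be told apart from background (the exact upper limit of 0 of 203 is 1.80%). Without thinning the shares were 21.8% and 9.33% against 0.512% and 1.59%. Fst was seen in 18.0% (16.9 to 19) and 5.53% (5.02 to 6.09) of mutant cells and in 0.518% (0.365 to 0.713) and 2.56% (2.13 to 3.05) of WT cells. The endothelial shares were 5.21%, 0%, 0.493% and 1.26%. Without thinning Fst was seen in 22.0% and 8.72% against 0.714% and 3.94%. Irx3 was at or under the endothelial share in 3 of the 4 libraries and above it in the first mutant, at 16.3% (15.3 to 17.3) against 6.25% (24.1% without thinning). Wnt4, in contrast, was seen in like shares of both mutants, 51.1% (49.8 to 52.5) and 49.1% (47.9 to 50.2), against 9.46% (8.79 to 10.2) and 18.6% (17.5 to 19.7) in WT. Endothelial cells had it in 10.4%, 5.0%, 0.493% and 1.89%. Without thinning Wnt4 was seen in 60.3% and 61.6% against 15.2% and 28.0%. Cyp11a1 was seen in 17.7% (16.7 to 18.8) and 29.7% (28.6 to 30.8) of mutant cells against 4.10% (3.65 to 4.58) and 8.73% (7.95 to 9.57) of WT cells, with at most 4.17% in endothelial cells. Without thinning these were 26.0% and 41.3% against 6.63% and 16.0%.

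Cells with UMIs of both programmes were counted too. Cells with Foxl2 or Fst were 25.5% and 9.36% of the mutants, 0.769% and 3.29% of XY WT and 45.6% and 44.6% of XX WT. Cells with Foxl2 or Fst that also had Amh or Dhh were 5.42% (4.82 to 6.06) and 1.37% (1.12 to 1.67) of the mutants, 0.154% and 0.271% of XY WT and 0.252% and 0.250% of XX WT. In XX +KTS KO these cells were 2.45% (2.12 to 2.81) and 0.535% (0.340 to 0.802). Cells with Amh or Dhh were 10.4% and 5.95% of the XY mutants and 25.9% and 19.6% of XY WT. They were 0.324% and 0.432% of XX WT and 8.85% and 4.49% of XX +KTS KO. Thinned to 3000 UMIs, cells with both were 3.18% and 0.561% of the XY mutants and 1.17% and 0.202% of XX +KTS KO. The WT libraries of both sexes then had at most 0.157%. Cells with Foxl2 or Fst and Sox9 were 4.39% (3.85 to 4.98) of the first mutant and 0.378% (0.249 to 0.5499) of the second, against 0.252% and 1.27% of XY WT, 0.828% and 1.91% of XX WT and 0.4001% and 0.163% of XX +KTS KO. No doublet caller was run, and the part of doublets and free RNA in these shares was not tested. Cells with Cyp11a1 and Inha were 9.12% and 23.7% of the mutants, 2.57% and 5.65% of XY WT and 3.91% and 3.61% of XX WT, and 24.7% and 25.5% of XX +KTS KO.

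**Figure D3:**
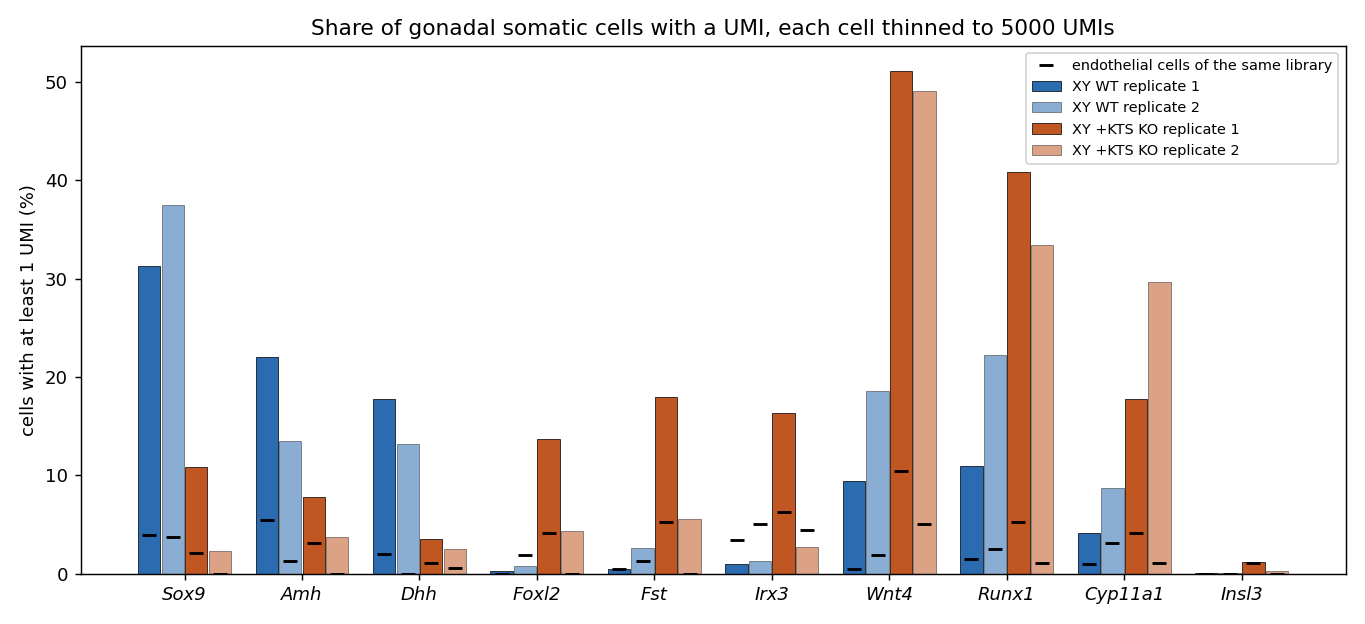
Share of somatic cells with at least 1 UMI of 10 marker genes after each cell was thinned to 5000 UMIs, as 1 bar per library (blue XY WT, orange XY +KTS KO, darker for replicate 1), with a black tick for endothelial cells of the same library. The mutants lie under WT for Sox9, Amh and Dhh and above it for Wnt4, Runx1 and Cyp11a1, and the mutants are unlike each other for Foxl2, Fst and Irx3.

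The mutant libraries were therefore compared directly, with no test, since each is 1 embryo. Among genes of at least 50 CPM in the higher library, large ratios of the first over the second were in the immediate early genes Nr4a1 (60.4 against 5.84 CPM), Fosb (105 against 12.7 CPM), Fos and Egr1 (276 and 41.8 CPM), and in Irx3, Ptgds and Fam181b (66.5 against 10.3 CPM). WT embryos lay between the mutants for Nr4a1, at 22.0 and 12.5 CPM, and near the second mutant for Fosb, at 11.6 and 8.31 CPM. Of the 11 immediate early and stress genes, 2 rose against WT and 9 did not pass. Without the second mutant library 8 rose and without the first 1 did. The largest ratios the other way were in Gm10260 (11.99 against 544 CPM), AA465934 (2.09 against 82.9 CPM), the amino acid transporter gene Slc7a2 (2.89 against 61.5 CPM), the smooth muscle actin gene Acta2 (13.1 against 67.4 CPM), Plaat3 and Msx1 (17.9 against 64.7 CPM). AA465934 was at 2.00 and 2.14 CPM in XY WT and between 47.0 and 74.1 CPM in the 4 XX WT and XX +KTS KO libraries. Gm10260 was at 16.9 and 408 CPM in the XY WT pair and 673 and 16.8 CPM in the XX WT pair, so both also differed within or between the WT groups. The duct gene Gata3 was at 0.973 and 4.21 CPM in the mutants and 0.426 and 0.315 CPM in WT, highest in the library with 73 duct cells. Gata3 is among the genes that define these cells, so its level there is not independent of their count. It rose by 2.80 ± 0.62 (SE, edgeR adjusted p = 0.0199) and did not pass without that library (0.059) or without either WT library (0.103 and 0.092). With duct and perivascular cells removed its log2 fold change was 1.21 (edgeR adjusted p = 0.0481). Since duct cells were picked partly by Gata3 UMIs, a lower value was largely set in advance.

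**Figure D4:**
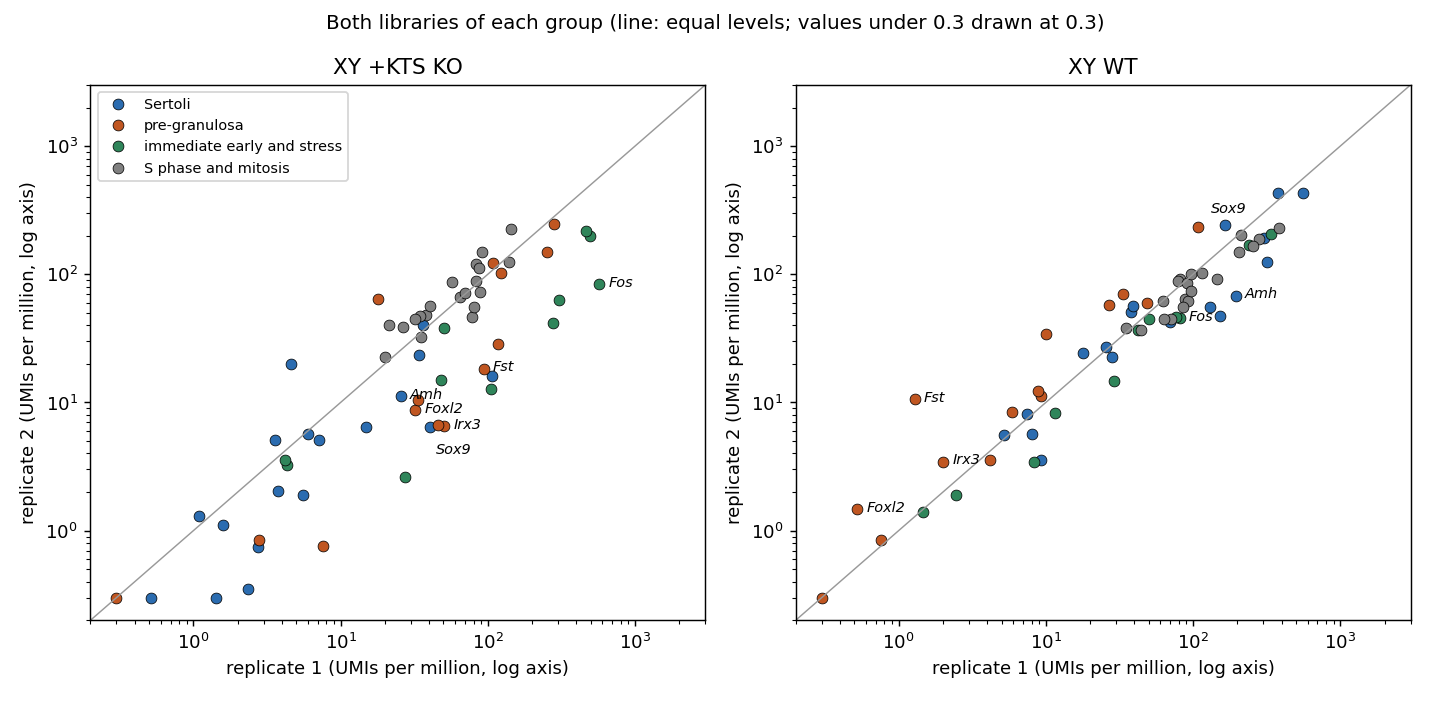
Level in replicate 1 (horizontal) against replicate 2 (vertical), in CPM on log axes, for genes of 4 lists in XY +KTS KO (left) and XY WT (right), with a line of equal levels. In the mutants Sox9, Foxl2, Irx3, Fst and Fos all lie below the line, higher in the first library, and in WT Fst lies far above it.

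To ask how near the mutant XY gonads were to an ovary, they were set against XX WT for autosomal genes alone, in a comparison that shares the mutant libraries with the one above. Of 17382 genes, 641 passed (3.69%), 332 higher in the XY mutants (1.91%) and 309 lower (1.78%). No gene of the 14 of the pre-granulosa list passed (edgeR, 5 at an unadjusted p under 0.05, DESeq2 1 higher and 4 lower). Foxl2 was at 32.2 and 8.70 CPM in the XY mutants and 18.98 and 22.6 CPM in XX WT, Rspo1 at 252 and 150.5 against 203 and 153 CPM and Wnt4 at 282 and 245 against 403 and 427 CPM. The log2 differences were -0.02 ± 0.59, 0.18 ± 0.30 and -0.66 ± 0.40 (SE). Fst was lower in both mutant libraries, 93.8 and 18.4 against 529 and 463 CPM, but did not pass (log2 difference -3.14 ± 1.04, SE, edgeR adjusted p = 0.143). Of 23 Wnt genes 1 was lower, none was higher and 22 did not pass, and of 20 S phase and mitosis genes none passed (1 at an unadjusted p under 0.05, DESeq2 none). With 3.69% of all genes passing, lists of these sizes would hold few calls, so the lack of calls does not measure nearness.

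Some Sertoli genes were above the XX WT level. Of 18, 5 were higher than in XX WT, none was lower and 13 did not pass. XX +KTS KO set against XX WT also had 4 of the 18 higher, none lower and 14 that did not pass. Levels above XX WT were therefore not particular to the XY mutants, and those of Amh and Dhh in XX +KTS KO are given below. Amh was at 25.7 and 11.2 CPM against 0.328 and 0.376 CPM in XX WT (higher by 5.70 ± 0.71, SE, on the log2 scale, edgeR adjusted p = 0.0046). Dhh was at 7.14 and 5.11 against 0.420 and 0.461 CPM (higher by 3.79 ± 0.35, SE, edgeR adjusted p = 0.00149), and Sox8 at 1.58 and 1.1 against 0.341 and 0.235 CPM (edgeR adjusted p = 0.0152). The other 2 were Cbln4 and Mmd2 (edgeR adjusted p = 0.0123 and 0.04). With only the libraries compared, Sox8, Cbln4 and Mmd2 did not pass, nor did Mmd2 with the replicate number as a block. Sox9, at 40.3 and 6.40 against 3.79 and 7.84 CPM, was above the ovary in the first mutant library alone (edgeR adjusted p = 0.153), and Tesc was under XX WT in both (3.74 and 2.03 against 4.88 and 5.54 CPM). Among the genes named for the size of their difference, those higher in the XY mutants were the chymotrypsinogen gene Ctrb1 (63.9 and 65.8 against 4.53 and 3.05 CPM), Pnmt, the enzyme that makes adrenaline (20.8 and 30.8 against 1.59 and 1.495 CPM, higher by 4.07 ± 0.23, SE, edgeR adjusted p = 0.00016), the renin gene Ren1, Gm2694 and the antiproliferative gene Btg2. Those lower included Tescl (1.64 and 1.79 against 32.9 and 18.0 CPM), Nrn1 (3.21 and 4.33 against 82.7 and 28.0 CPM), Pnliprp1 and Ccdc30. Ctrb1 and Pnmt were at 68.8 and 60.6 and 17.5 and 21.2 CPM in XY WT and 98.2 and 59.9 and 53.1 and 40.3 CPM in XX +KTS KO, so XX WT was the lowest of these 4 groups for both. The count of 641 was 65 without the first XX WT library, 108 without the second, and 740 and 830 without the first or the second mutant. Amh (0.0587 and 0.0511), Sox8 (0.0823 and 0.116), Mmd2 (0.267 and 0.129) and Ctrb1 (0.0823 and 0.0930) did not pass without the first or the second XX WT library, nor Cbln4 without the second (0.0870) and Mmd2 without the first mutant (0.0783), while Dhh, Pnmt, Tescl and Nrn1 passed in all 13 alternatives. Ren1, Gm2694, Btg2, Pnliprp1 and Ccdc30 did not pass without either XX WT library, nor Ren1, Pnliprp1 and Ccdc30 without either mutant and Btg2 without the first (highest adjusted p = 0.239, 0.217, 0.201, 0.186 and 0.152).

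The same mutation in XX gonads was the second reference, because it shares no library with the XY comparison. In XX, 861 of 18019 genes passed (4.78%), 398 higher and 463 lower. Of the genes higher in XY, 153 were also higher in XX (13.4% of the XY and 38.4% of the XX calls) and 27 were lower in XX. Of those lower in XY, 111 were lower in XX too (9.5% and 24.0%) and 34 were higher. The difference between the effects, tested directly, passed for 711 genes (3.95%), 347 with the more positive change in XY (1.93%) and 364 with the more negative (2.02%). Where mutants of both sexes reached like levels, this difference gives how far XY WT and XX WT stood apart. Of the genes named whose difference passed, Amh had the largest downward. Set against its fall in XY, it went from 0.328 and 0.376 CPM to 19.5 and 7.46 CPM in XX (difference -8.08 ± 0.91, SE, edgeR adjusted p = 0.00284). Dhh went from 0.420 and 0.461 to 5.97 and 4.51 CPM in XX, so that the mutants of both sexes stood between 4.51 and 7.14 CPM (difference -6.77 ± 0.46, SE, edgeR adjusted p = 0.000262). Fst went from 529 and 463 CPM in WT to 38.9 and 8.89 CPM in mutants in XX (difference 7.61 ± 1.53, SE, edgeR adjusted p = 0.0284). Foxl2 went from 18.98 and 22.6 to 14.99 and 6.57 CPM (difference 5.32 ± 0.91, SE, edgeR adjusted p = 0.0152). Within XX alone neither passed (edgeR adjusted p = 0.0544 for Fst and 0.471 for Foxl2). Wnt4, Rspo1, Axin2, Sp5, Lef1 and Fgfr2 had differences of 2.02 to 3.85, all with the more positive change in XY. The count of 711 was 156 to 335 without the first XY WT library or any 1 of the 4 XX libraries, 751 and 845 without the first XY mutant or the second XY WT library, and 1504 without the second XY mutant. With 1 library left out, the difference did not pass in at least 1 case for Fst (highest adjusted p = 0.116), Foxl2 (0.0676), Wnt4 (0.132), Rspo1 (0.139), Sp5 (0.0797) and Axin2 (0.0525). Those for Amh, Dhh, Lef1 and Fgfr2 passed in all alternatives.

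For some genes the XX gonads changed the same way. Cyp11a1 rose in XX as well, from 24.6 and 19.6 to 151 and 161 CPM (difference -0.51 ± 0.68, SE, edgeR adjusted p = 0.712), as did Cyp17a1 (0.997 and 1.19 to 5.18 and 4.21 CPM) and Mgam (1.76 and 3.44 to 27.8 and 41.6 CPM), and neither difference passed (edgeR adjusted p = 0.976 and 0.426). Lgr5 fell in XX from 5.52 and 5.17 to 0.826 and 0.368 CPM and Dkk1 from 4.34 and 4.21 to 0.272 and 0.509 CPM (edgeR adjusted p of the difference = 0.683 and 0.381). Cd55 fell in both sexes, in XX from 14.9 and 16.0 to 2.49 and 2.92 CPM, but by more in XY (difference -2.06 ± 0.31, SE, edgeR adjusted p = 0.00924).

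**Figure D5:**
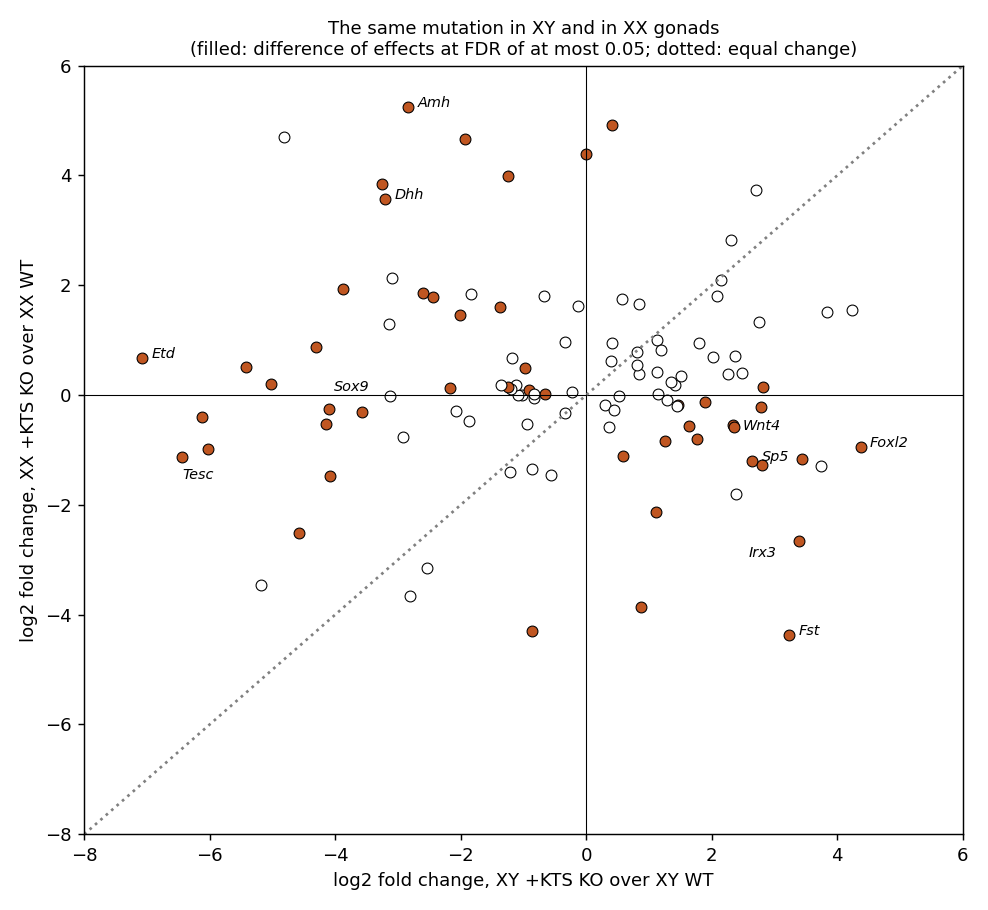
Log2 fold change of +KTS KO over WT in XY (horizontal) and in XX (vertical) for the genes named in the text, 1 point per gene, with filled points where the difference of the effects had an adjusted p of at most 0.05 and a dotted line of equal change. Amh and Dhh lie at upper left, lower in XY and higher in XX mutants, and Foxl2, Irx3 and Fst lie at lower right.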

How the data were processed

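Per the labels, the authors made 10x Genomics 3' gene expression libraries of dissociated gonads. The submitters' processing notes name Cell Ranger 6.0 and mm10. The authors deposited raw counts, whole numbers of UMIs per gene and cell, filtered to called cells. No column was excluded.

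Cells were kept by the rule in the opening, UMIs were summed per library, and each XY library held 72151542 to 113015648 somatic UMIs. The summed counts were tested in edgeR 4.0.16 (R 4.3.3) with TMM scaling, its filter on low counts, the quasi-likelihood F test over 12 libraries in 6 groups, and Benjamini-Hochberg adjustment at 0.05. SE is the log2 fold change over the root of F. The fit was tested on simulated data. DESeq2 1.42.0, other scaling, filters, cell rules, the replicate number as a block and leaving out each library were alternatives. Deviations of same-numbered libraries correlated at -0.141 for XY +KTS KO with XY WT and between -0.276 and 0.325 over the pairs of groups, not in 1 direction, so the numbers were not taken to pair embryos.

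Genes named were list members that passed or are best known, and those with the largest log2 fold changes among genes that passed with a mean of at least 20 CPM in the higher group, 12 each way for XY +KTS KO versus XY WT (both libraries of a group beyond both of the other), and 5 each way for the other comparisons. For the comparison of the mutant libraries they were the 8 largest ratios each way. A few genes are not reported here. Lists and cells were chosen with earlier results of these data known. No doublet caller was run. Exact Clopper-Pearson intervals cover counting error only. Sequences came from the mm10 genome with GENCODE M21 and from RefSeq. Promoters were found, by symbol, for 73 of the 111 genes followed through the alternatives.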

Additional observations from a re-analysis of the deposited data

Results flagged for a closer look

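For 48 of the 111 genes followed through the alternatives, the change from WT to +KTS KO differed between XY and XX gonads. The difference itself was tested (edgeR, adjusted p of at most 0.05), and this is what marks them here. Over all genes tested, 3.95% passed. The genes followed were chosen in part because they passed, some of them in this comparison, so the shares are not comparable. The values that follow are the log2 fold change in XY minus that in XX. They also take in how far XY WT and XX WT stood apart. Amh and Dhh had like levels in mutants of both sexes, so their values mostly give the WT difference. For such genes the sign follows from the WT levels. The more positive change in XY belonged to the ovarian and Wnt genes Fst (7.61), Irx3 (6.04), Foxl2 (5.32), Sp5 (3.85), Bmp2 (3.24), Axin2 (2.93), Wnt4 (2.88), Wnt9a (2.67), Lef1 (2.20) and Rspo1 (2.02), and to Col12a1 (4.73), Wfdc1 (4.59), Gata3 (4.08), Nrn1 (3.44), Plac8 (2.99), Fgfr2 (2.56), Cdkn1b (2.09), Cdkn1c (1.68) and Emx2 (1.64). Col12a1 was at 17.1 and 3.12 CPM in XY mutants, 1.95 and 9.10 CPM in XY WT, 3.89 and 1.92 CPM in XX mutants and 43.0 and 41.7 CPM in XX WT. Cdkn1c, a cell cycle inhibitor, was at 1167 and 836, 623 and 718, 1084 and 980.4 and 2374 and 2055 CPM in the same order, and neither passed in XY (edgeR adjusted p = 0.462 and 0.0794).

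The more negative change belonged to the Sertoli genes Amh (-8.08), Dhh (-6.77), Mmd2 (-5.81), Col9a3 (-5.72), Tesc (-5.32), Cst9 (-5.23), Cbln4 (-4.46), Aard (-3.85), Mro (-3.61), Sox8 (-3.47), Fgf9 (-3.26), Defb19 (-2.98) and Cyp26b1 (-2.31). It also belonged to Etd (-7.75), Siglece (-7.10), Gm2694 (-6.61), Lncbate6 (-5.93), Ren1 (-5.24), Gstm6 (-5.17), Spp1 (-5.04), Pnmt (-4.51), Ctrb1 (-4.39), Hsd17b1 (-4.23), Cited4 (-2.61), Cd55 (-2.06), Acvr1 (-1.47), Sparc (-1.38), Bub1 (-1.01) and Top2a (-0.68). The difference of 18 of the 48 passed under all alternatives tried, and none of them turned its direction.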

How the results depend on the processing

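Between XY +KTS KO and XY WT, 2312 genes passed, 2000 with the replicate number as a block and 3242 with the numbers of the XY +KTS KO libraries crossed, an alternative chosen after seeing the data. DESeq2 called 3432, no filter on low counts 2748 and the 4 compared libraries alone 340. Leaving out 1 library gave 708 to 3051, the lone library of a group being assumed to vary like the other groups. RLE scaling moved the median log2 fold change of all genes from 0.05 to 0.01 and the share of calls that were higher from 49.4% to 44.2%. The difference of effects (711) was 1586 with DESeq2, 1185 with no filter, 286 with only the libraries compared, 278 with no other cell type removed, 548 with the replicate block and 156 to 1504 without 1 library. Against XX WT (641) the counts were 1320, 1144, 152, 327, 556 and 65 to 830.

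Of 111 genes, 81 passed and 23 of these passed in all 13 alternatives. Genes were followed in part because they passed, so their share cannot be set against the 12.8% of all genes. Calls of 5 genes were lost under the replicate block: Irx3 (edgeR adjusted p = 0.0534), Fzd2 (0.0516), Lama4 (0.0501), Fos (0.0681) and Hsd17b3 (0.0737), and no gene that passed turned its direction. Genes that did not pass turned as follows, on the log2 scale. With no other cell type removed Vnn1 was 0.10 and Gata4 0.034. Ctrb1 was -0.041 with DESeq2, -0.041 with RLE scaling, -0.011 with only the libraries compared and -0.017 with perivascular and duct cells removed. Without 1 library the values ran from -0.65 to 0.71 for Vnn1, -0.062 to 3.25 for Irx5, -1.01 to 0.10 for Kitl, -0.76 to 0.0095 for Gadd45g, -1.41 to 0.90 for Gli1, -0.86 to 0.053 for Star, -0.24 to 1.103 for Inha, -0.81 to 2.36 for Col12a1, -2.09 to 1.01 for Ren1 and -0.083 to 0.096 for Ctrb1. The cause of these shifts was not tested. With 2 embryos in a group, 1 library decides many calls, and genes of a few UMIs per library are the least certain.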

Other observations

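Cells left out of the somatic sums differed too. Germ cells made up 7.62% and 2.67% of the passing cells in the XY +KTS KO libraries (580 and 218 cells) and 14.5% and 19.98% in XY WT (1313 and 1324 cells). Endothelial cells were 1.47% and 2.37% against 2.58% and 2.72%. Neither share was tested, with 2 embryos a group. When all of these cells were kept in the sums, 1848 genes passed in place of 2312, and 1429 of the 2312 calls (61.8%) were kept. Of the 111 genes followed through the alternatives, 14 lost their call, Top2a, Cdkn2b, Spry1 and Spry2 among them. Of the 24 genes chosen by the size of their change in XY, only Cited4 did, at a log2 fold change of -0.94 (edgeR adjusted p = 0.365).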
